A study of Homo sapiens with 4 samples.

Results

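The genes followed here were 10 members of the S100 and annexin families of calcium-binding proteins. They were S100A4, S100A6, S100A10, S100A11, S100A13, S100A16, ANXA1, ANXA2, ANXA5 and ANXA6, taken by gene symbol from the 58274 gene identifiers of the expression table. All 10 were found, and all 10 reached at least 1 FPKM (fragments per kilobase of transcript and 1000000 mapped fragments) in at least 1 library, as did 17137 genes in all. The libraries were made from total RNA of BC1, an induced pluripotent line of human origin, and of 3 cell populations obtained from it by hematopoietic differentiation. Cells received activin A and BMP4 for the first 2 days and then VEGF and bFGF. APLNR+ cells, which carry the apelin receptor of early mesoderm, were taken at day 2. The CD31+CD34+ cells of day 5 are hemogenic endothelial progenitors, or HEPs, and the CD43+ cells of day 8 are hematopoietic progenitors, or HPCs. There was 1 library for each population, and all came from the same cell line.

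With 1 library per population no difference below has a replicate check, and no p-value is given. The folds carry a 95% counting interval, which covers the sampling of fragments and neither the cultures nor the sorts. A gene is said to have risen or fallen when its log2(FPKM + 1) changed by at least 1. Consecutive transitions share the library between them, so their changes are not independent. In whole populations, fewer cells of a type and less RNA of a gene per cell cannot be told apart.

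The depth read from the steps of the low FPKM values was 19600000 to 23600000 mapped fragments per library. The cell identities were checked with marker lists. The summed level of 6 pluripotency genes was 3115 FPKM in BC1 and 1039 in APLNR+, then 147 in CD31+CD34+ and 116 in CD43+, and SOX2 was listed at 0 in the last 2 of these. The 5 mesoderm genes summed to 2206 FPKM in APLNR+ and to at most 217 in the other populations. APLNR itself gave 1073 of the 2206 FPKM, and 209 of the 217 in CD31+CD34+. Of the 8 endothelial genes, all 8 reached 1 FPKM in CD31+CD34+, where their sum was 1302 FPKM against 327 in CD43+. The 10 stromal and smooth muscle genes also summed highest in CD31+CD34+, at 581 FPKM. Their sum was 252 FPKM in BC1, 314 in APLNR+ and 143 in CD43+. The 6 hematopoietic genes summed to 205 FPKM in CD31+CD34+ and 824 in CD43+. The lists hold APLNR, PECAM1 (CD31) and SPN (CD43), genes of antigens used in the sorts. That part of the check was not independent of the sorts. The CD43+ library also held 3073 FPKM of 5 megakaryocytic genes and 5518 FPKM of 5 erythroid genes, against 87.4 and 37.0 in CD31+CD34+. In CD43+ HBE1 alone gave 5271 of the erythroid FPKM, and PF4 gave 1674 of the megakaryocytic FPKM. Of 7 myeloid genes, 3 reached 1 FPKM in CD43+, ELANE was listed at 0 in every library, and PTPRC, the gene of CD45, did not exceed 0.0349 FPKM.

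S100 proteins are small proteins with a pair of EF-hand loops, and most of them expose a surface for a target protein when calcium is bound. Annexins bind acidic phospholipids in the presence of calcium and so move to membranes when calcium rises. Members of the families work together: S100A10 holds ANXA2 in a complex under the plasma membrane, and S100A11 binds the N-terminal part of ANXA1. In endothelium and in blood cells these proteins are known for roles in membrane repair, exocytosis, cell movement and the surface generation of plasmin.

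**Figure D1:**
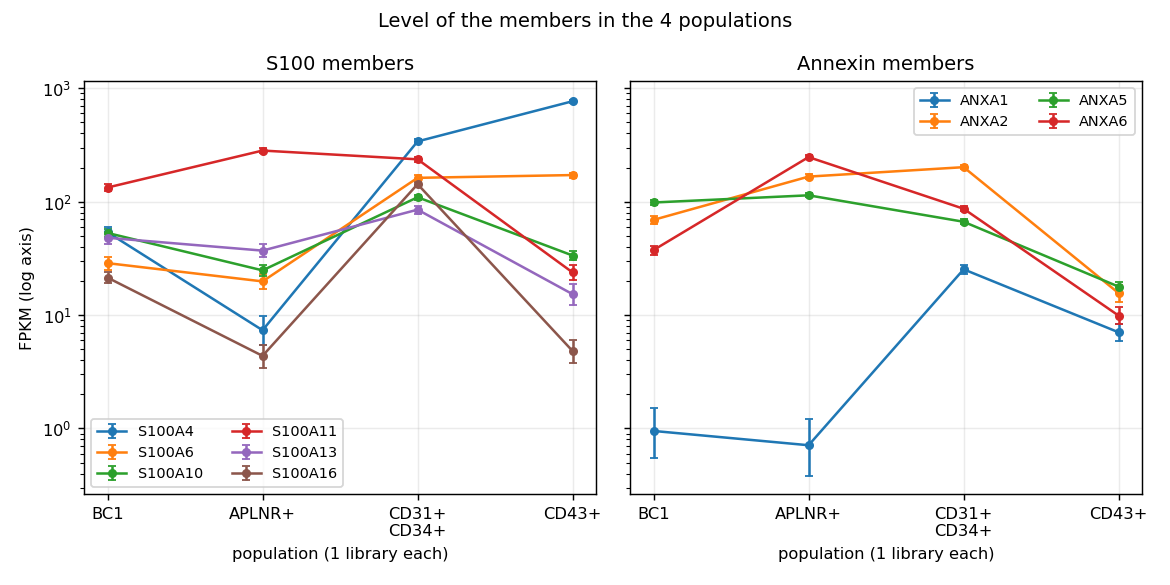
FPKM of the S100 members (left) and the annexin members (right) on a log axis in the 4 populations, 1 library each. Bars are exact Poisson 95% counting intervals, and S100A4 ends at 769 FPKM in CD43+ while the 4 annexins end between 7.04 and 17.8 FPKM.

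From BC1 to APLNR+ cells the members moved in opposite directions. S100A11, ANXA2 and ANXA6 rose, and S100A4, S100A10 and S100A16 fell, so 3 of 10 rose where 9.15% of all tested genes did, and 3 of 10 fell against 9.32%. The median change of the members was -0.28 on the log2 scale, and that of all 17137 genes was 0. Of the annexin members 2 of 4 rose and none fell, while 3 of the 6 S100 members fell and 1 rose. All 5 mesoderm marker genes rose at the same transition and 5 of the 6 pluripotency genes fell, and their part in the members' changes was not tested.

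From APLNR+ to CD31+CD34+ cells 6 members rose, S100A4, S100A6, S100A10, S100A13, S100A16 and ANXA1, against 13% of all genes. ANXA6 was the 1 member that fell, where 11.4% of genes did. The median change was 1.64 over the 10 members and 0.01 over all genes. It was 2.54 over the 6 S100 members, of which 5 rose. Over the 4 annexin members it was -0.25, with 1 that rose and 1 that fell. At the same transition 7 of the 8 endothelial marker genes rose, and so did 4 of the 8 stromal and smooth muscle genes that passed the filter, of which 1 fell. All 6 hematopoietic genes rose, as did the 4 erythroid genes that passed the filter, 3 of 5 megakaryocytic genes and 2 of 4 myeloid genes. All 5 mesoderm genes and 2 of 6 pluripotency genes fell. The part of these cell types in the members' changes was not tested.

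From CD31+CD34+ to CD43+ cells 8 of 10 members fell, against 13.5% of all genes. S100A4 rose, where 7.63% of genes did, and S100A6 moved by 0.08 on the log2 scale, a value whose sign changed with the scaling: it was -0.0021 without mitochondrial genes and -0.038 with each library scaled to the same total. All 4 annexin members fell, with a median change of -2.43, and the median over the 10 members was -2.12 against -0.08 for all genes. At the same transition 5 of 8 endothelial genes and 5 of 8 stromal and smooth muscle genes fell, as did 2 of 5 mesoderm genes and 1 of 6 pluripotency genes. All 5 megakaryocytic genes, all 6 hematopoietic genes, the 4 erythroid genes that passed the filter and 1 of 4 myeloid genes rose. The median change was 5.06 for the megakaryocytic, 1.86 for the hematopoietic and 3.97 for the erythroid genes. The part of these cell types in the members' changes was not tested.

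**Figure D2:**
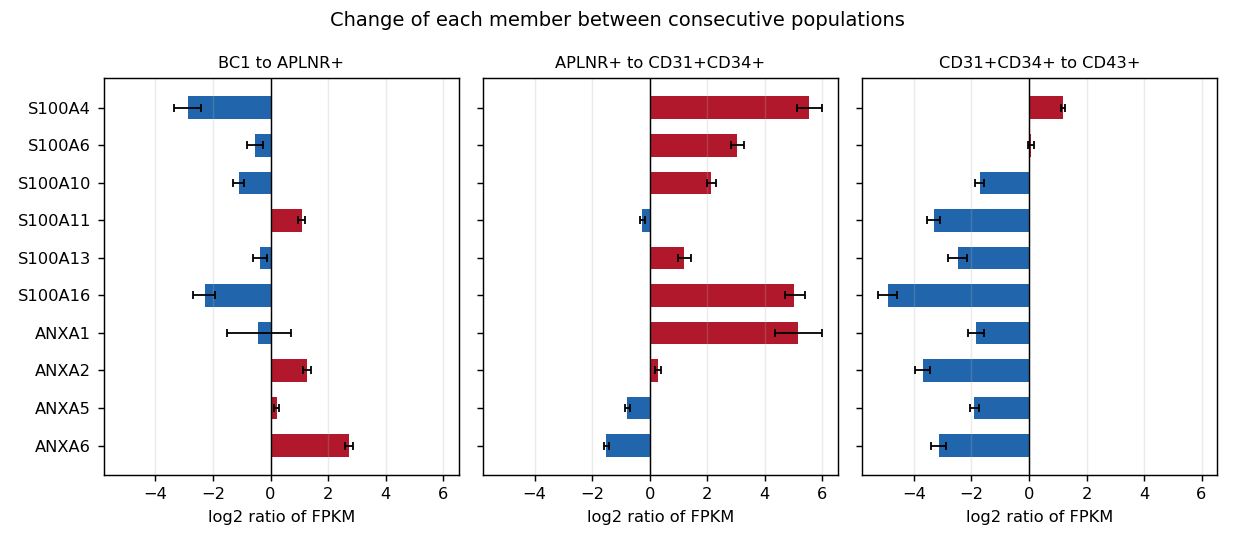
Log2 ratio of FPKM of each member between consecutive populations, with bars to the right for a higher and to the left for a lower level in the later population and 95% counting intervals as error bars. At the last transition the bars of 8 members point left, that of S100A4 points right and that of S100A6 has an interval that includes a ratio of 1.

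Over the whole course from BC1 to CD43+ cells S100A4, S100A6 and ANXA1 rose, 3 of 10 against 15.2% of all genes. S100A11, S100A13, S100A16, ANXA2, ANXA5 and ANXA6 fell, 6 of 10 against 18.9%. No member had its highest level in BC1, where 27.7% of all tested genes had theirs. For 3 members, S100A11, ANXA5 and ANXA6, the highest level was in APLNR+ cells (22.7% of all genes). For 5, S100A10, S100A13, S100A16, ANXA1 and ANXA2, it was in CD31+CD34+ cells (25.5%), and for S100A4 and S100A6 in CD43+ cells (24.0%). When the 4 levels of each member were put in order, 27 of the 30 pairs of neighbouring levels differed beyond the counting interval. The 3 that did not were S100A6 in CD31+CD34+ and CD43+, S100A16 in APLNR+ and CD43+, and ANXA1 in BC1 and APLNR+. Such pairs were not counted over all genes, so the count does not set the members apart. A fold as small as 1.16, that of ANXA5 in BC1 and APLNR+ (1.09 to 1.23), lay beyond the counting interval.

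**Figure D3:**
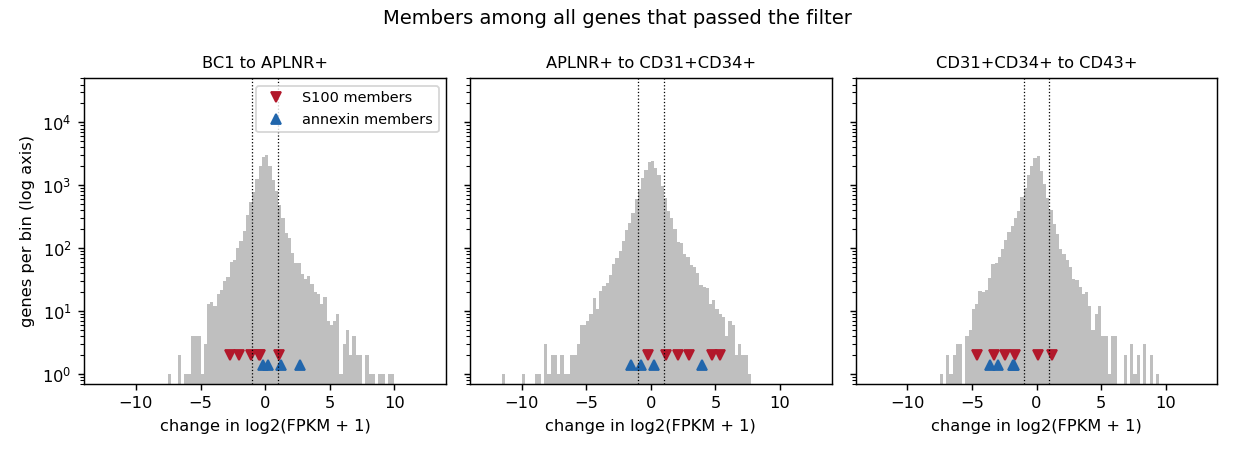
Number of genes per bin of change in log2(FPKM + 1), on a log axis, for the 17137 genes tested at each transition, with the S100 members (downward triangles) and annexin members (upward triangles) placed at their own change. Dotted lines mark changes of 1 in either direction, and at the last transition 8 of the 10 triangles lie to the left of the left line.

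S100A4, which binds the heavy chain of non-muscle myosin IIA and is a common mark of motile and fibroblast-like cells, had the widest range of the members. It was at 53.7 FPKM in BC1 and 7.34 in APLNR+, then 340.0 in CD31+CD34+ and 769 in CD43+. The APLNR+ level was the lowest and the CD43+ level the highest, 105-fold apart. The level was 7.31-fold lower in APLNR+ than in BC1 (95% counting interval 5.40 to 10.1). It was 46.3-fold higher in CD31+CD34+ than in APLNR+ (34.9 to 63.2). A further 2.26-fold rise followed in CD43+ (2.15 to 2.38), in which S100A4 lay above 99.2% of the tested genes, compared with 52.2% in APLNR+. S100A4 (ENSG00000196154.11) lies on the minus strand of chromosome 1 at 153543613 to 153550136 (GRCh38).

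S100A6, or calcyclin, binds the calcyclin-binding protein CACYBP and is found in many proliferating cells. Its level was 28.7 FPKM in BC1 and 19.8 in APLNR+, then 162 in CD31+CD34+ and 172 in CD43+. The first 2 of these were low and the last 2 high. It was 8.19-fold higher in CD31+CD34+ than in APLNR+ (7.0 to 9.66), whereas the 1.06-fold step to CD43+ had an interval of 0.98 to 1.14. The level in CD43+ was 5.98-fold that in BC1 (5.20 to 6.89). S100A6 (ENSG00000197956.9, chromosome 1, 153534599 to 153536244, minus strand) starts 13.9 kb from the start of S100A4, between the 5′ ends of the annotated loci. S100A4 exceeded S100A6 1.87-fold in BC1 (1.57 to 2.22), 2.10-fold in CD31+CD34+ (1.96 to 2.24) and 4.48-fold in CD43+ (4.22 to 4.76), but was at 0.371 of S100A6 in APLNR+ (0.263 to 0.512).

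These neighbours are shown with their promoters because they were the 2 members highest in CD43+. The windows of 300 bases lie around the RefSeq start (GRCh38.p14), mostly upstream of it, are printed 5′ to 3′ on the gene's strand, and have each CG dinucleotide in capitals. That of S100A4 is chr1:153545757-153546056 on the minus strand, inside the annotated locus, and that of S100A6 is chr1:153535942-153536241 on the minus strand.
S100A4: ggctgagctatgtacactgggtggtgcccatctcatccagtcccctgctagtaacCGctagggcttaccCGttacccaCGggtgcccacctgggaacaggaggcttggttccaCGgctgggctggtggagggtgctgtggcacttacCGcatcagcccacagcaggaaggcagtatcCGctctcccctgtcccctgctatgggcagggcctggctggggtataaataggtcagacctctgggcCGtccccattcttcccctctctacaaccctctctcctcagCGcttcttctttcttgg
S100A6: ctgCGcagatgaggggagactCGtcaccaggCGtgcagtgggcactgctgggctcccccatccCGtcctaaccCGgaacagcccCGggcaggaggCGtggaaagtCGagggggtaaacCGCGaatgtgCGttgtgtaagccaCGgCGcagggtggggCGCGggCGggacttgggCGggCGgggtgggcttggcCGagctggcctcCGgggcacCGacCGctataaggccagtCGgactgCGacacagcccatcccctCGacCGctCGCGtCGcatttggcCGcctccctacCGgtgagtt
The S100A4 window has 8 CG dinucleotides and the S100A6 window 31, where the median of all 35116 RefSeq promoters is 14. The letters GGGCGG, which SP and KLF factors bind, were searched on both strands. They start at bases 161, 172 and 176 of the S100A6 window, counted from its 5′ end, and are not in the S100A4 window.

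S100A10 and ANXA2 form a heterotetramer at the cell surface that binds plasminogen and tissue plasminogen activator. S100A10 (ENSG00000197747.8, chromosome 1, 151982915 to 151994390, minus strand) has EF-hand loops that no longer bind calcium. It was at 53.0 FPKM in BC1 and 24.8 in APLNR+, then 109 in CD31+CD34+ and 33.5 in CD43+, so it was highest in the HEPs. The level was 2.14-fold lower in APLNR+ than in BC1 (1.88 to 2.44) and 4.42-fold higher in CD31+CD34+ than in APLNR+ (3.93 to 4.98). In CD43+ it was 3.27-fold lower than in CD31+CD34+ (2.94 to 3.63).

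ANXA2 (ENSG00000182718.16, chromosome 15, 60347134 to 60402883, minus strand) did not share the dip of S100A10 in mesoderm. Its levels were 69.1 FPKM in BC1 and 166 in APLNR+, then 201 in CD31+CD34+ and 15.6 in CD43+. They rose 2.41-fold at the first transition (2.18 to 2.66) and differed 1.21-fold at the next (1.13 to 1.30). The CD43+ level was 12.9-fold lower than that of CD31+CD34+ (10.9 to 15.6) and 4.43-fold lower than that of BC1 (3.67 to 5.43).

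FPKM is per length of transcript, so the levels of both genes can be set against each other within a library. Such a ratio of 2 genes also depends on the transcript lengths behind each FPKM, which no counting interval here covers. The ratio of S100A10 to ANXA2 was 0.767 in BC1 (0.685 to 0.859) and 0.149 in APLNR+ (0.132 to 0.168). It was 0.543 in CD31+CD34+ (0.508 to 0.581) and 2.15 in CD43+ (1.77 to 2.64). S100A10 thus had the lower FPKM of the pair in 3 populations and the higher FPKM in CD43+, where both were below their CD31+CD34+ levels.

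**Figure D4:**
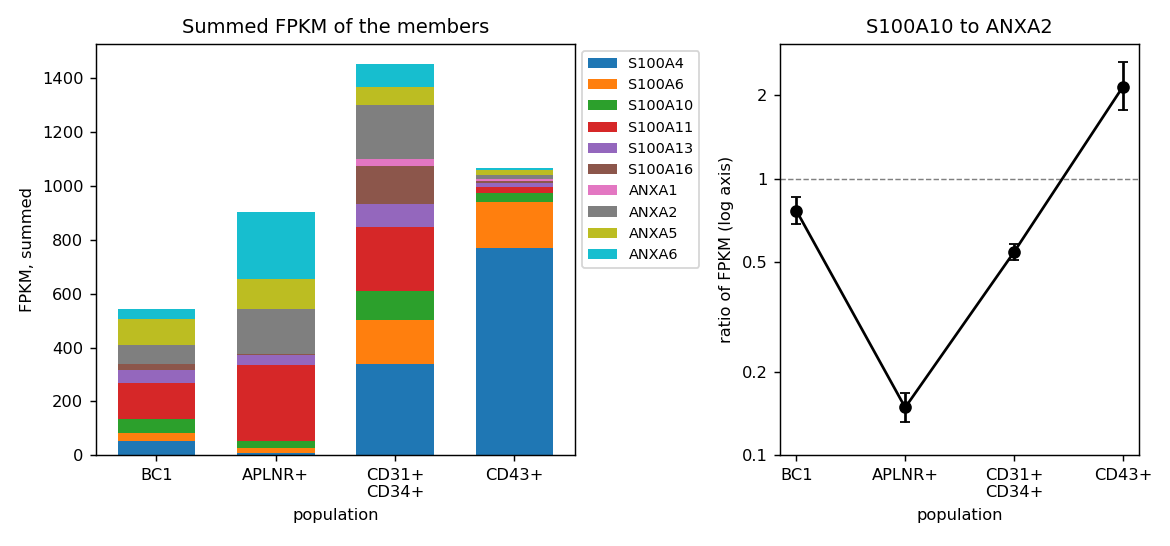
Left, FPKM of the 10 members summed in each population, with 1 colour per member. Right, ratio of the FPKM of S100A10 to that of ANXA2 on a log axis with 95% counting intervals and a dashed line at 1. The ratio lies lowest in APLNR+ (0.149) and above 1 in CD43+ (2.15).

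S100A11, or calgizzarin, takes part in membrane repair and binds ANXA1. It was at 133 FPKM in BC1 and 282 in APLNR+, then 236 in CD31+CD34+ and 23.7 in CD43+, high in the first 3 populations and low in the last. The level rose 2.12-fold at the first transition (1.96 to 2.30), was 1.19-fold lower in CD31+CD34+ (1.12 to 1.27) and was 9.96-fold lower in CD43+ than in CD31+CD34+ (8.49 to 11.8). S100A11 (ENSG00000163191.5) lies on the minus strand of chromosome 1 at 152032506 to 152047907.

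Of the other members, ANXA2 had the pattern closest to that of S100A11. The root mean squared difference of their log2(FPKM + 1) values, each centred on its own mean over the 4 libraries, was 0.26. For S100A10 and S100A13 it was 0.59, and for S100A6 and ANXA1 it was 0.65. The nearest member to S100A4 was S100A6, at 1.26, and that to S100A16 was S100A10, at 1.15. These are descriptions over 4 points.

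The promoters of S100A11 and ANXA2, the closest pair, and of ANXA1, the member with the lowest GC content in its window, are given in the same form. Their positions are chr1:152036955-152037254 and chr15:60397937-60398236 on the minus strand and chr9:73151615-73151914 on the plus strand. The S100A11 and ANXA2 windows lie inside the annotated loci.
S100A11: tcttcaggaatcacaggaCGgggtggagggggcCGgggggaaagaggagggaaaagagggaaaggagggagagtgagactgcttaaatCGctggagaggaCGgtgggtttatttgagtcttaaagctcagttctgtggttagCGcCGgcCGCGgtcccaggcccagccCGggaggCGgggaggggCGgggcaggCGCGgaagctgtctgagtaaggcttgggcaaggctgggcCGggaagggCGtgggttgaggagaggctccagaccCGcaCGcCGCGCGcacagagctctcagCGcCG
ANXA2: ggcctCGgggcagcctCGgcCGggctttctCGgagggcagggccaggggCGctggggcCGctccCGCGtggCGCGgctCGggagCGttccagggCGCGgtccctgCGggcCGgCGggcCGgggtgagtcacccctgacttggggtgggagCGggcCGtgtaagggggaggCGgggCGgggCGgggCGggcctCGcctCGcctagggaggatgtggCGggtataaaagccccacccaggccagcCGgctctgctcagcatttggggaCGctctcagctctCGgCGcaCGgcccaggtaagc
ANXA1: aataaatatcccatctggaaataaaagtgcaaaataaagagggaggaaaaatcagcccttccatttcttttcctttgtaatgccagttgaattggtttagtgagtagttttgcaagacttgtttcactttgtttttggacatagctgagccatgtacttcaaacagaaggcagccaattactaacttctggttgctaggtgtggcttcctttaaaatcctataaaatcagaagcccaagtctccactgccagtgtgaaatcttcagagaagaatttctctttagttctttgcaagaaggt
The S100A11 window has 22 CG dinucleotides and 65.3% GC, and the ANXA2 window has 32 and 76.0%. The ANXA1 window has 0 CG dinucleotides and 37.7% GC, where the median of all promoters is 58.7% GC.

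In all, 14 RefSeq promoter windows matched the 10 members. GGGCGG was in 8 of the 14 windows, at least 1 window for 8 of the 10 members, and in 45.0% of all promoters. It starts at bases 173, 178 and 183 of the ANXA2 window and at base 183 of the S100A11 window. TGANTCA, the AP-1 motif, was in 1 member window, that of ANXA2 at base 124, and in 7.71% of all promoters. AGATAA, bound by factors of the GATA family, was in 0 of the 14 windows and in 10.3% of all promoters. All 3 motifs were searched on both strands. Matches of GGGCGG that start close together overlap each other, no match overlaps one of another motif, and a match here describes letters only.

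ANXA1, or lipocortin, restrains phospholipase A2 and is the ligand of formyl peptide receptors. Its levels were 0.949 FPKM in BC1 and 0.710 in APLNR+, then 25.3 in CD31+CD34+ and 7.04 in CD43+. In the first 3 of these populations it was the lowest of the members. In BC1 and APLNR+ it rested on about 16.7 and 13.6 fragments, and their 1.34-fold difference had an interval of 0.611 to 2.89. The level was 35.6-fold higher in CD31+CD34+ than in APLNR+ (20.4 to 63.6). It was 3.60-fold lower in CD43+ than in CD31+CD34+ (2.97 to 4.40) but still 7.41-fold higher than in BC1 (4.37 to 12.9). S100A11 exceeded ANXA1 140.3-fold in BC1 (85.8 to 238), 398-fold in APLNR+ (229 to 706), then 9.34-fold in CD31+CD34+ (8.47 to 10.3) and 3.37-fold in CD43+ (2.66 to 4.28). ANXA1 (ENSG00000135046.13) lies on the plus strand of chromosome 9 at 73151757 to 73170393.

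S100A16, a widely expressed S100 protein, peaked in the HEPs. Its levels were 21.4 FPKM in BC1 and 4.36 in APLNR+, then 143 in CD31+CD34+ and 4.81 in CD43+. The 2 low levels, in APLNR+ and CD43+, differed 1.10-fold (0.791 to 1.54). S100A16 fell 4.90-fold at the first transition (3.81 to 6.46), rose 32.7-fold at the next (26.0 to 42.2) and fell 29.7-fold at the last (23.8 to 37.8). S100A16 (ENSG00000188643.10) lies on chromosome 1 at 153606886 to 153613145, minus strand.

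S100A13, which takes part in the release of FGF1 and other proteins that lack a signal peptide, peaked in the same population with a smaller range. It was at 48.0 FPKM in BC1 and 37.0 in APLNR+, then 85.0 in CD31+CD34+ and 15.3 in CD43+. The rise into CD31+CD34+ was 2.30-fold (1.97 to 2.68) and the fall into CD43+ 5.57-fold (4.46 to 7.01). S100A13 (ENSG00000189171.14, chromosome 1, 153618787 to 153631360, minus strand) shares 235 of its 2216 exon bases with S100A1 on the opposite strand and 536 with the transcript AL162258.1 on its own strand. Whether the counting used strand is not stated, so reads of these genes could have been split between them. The level of AL162258.1 was 1.09% to 2.92% of that of S100A13 in the first 3 populations and 22.0% in CD43+. S100A1 was at 4.26% to 12% of S100A13 in the first 3 and 32.1% in CD43+.

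ANXA5, known for its binding to phosphatidylserine, had its highest level in APLNR+ and its lowest in CD43+. Its levels were 98.3 FPKM in BC1 and 114 in APLNR+, then 66.5 in CD31+CD34+ and 17.8 in CD43+. It did not pass the threshold until the last transition, at which it fell 3.74-fold (3.35 to 4.17), after a 1.71-fold lower level in CD31+CD34+ than in APLNR+ (1.61 to 1.82). ANXA5 (ENSG00000164111.14) lies on chromosome 4 at 121667955 to 121697113, minus strand.

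ANXA6, the largest annexin, which binds membranes of the endocytic pathway, peaked in mesoderm. It was at 37.4 FPKM in BC1 and 247 in APLNR+, then 86.6 in CD31+CD34+ and 9.87 in CD43+. It rose 6.61-fold at the first transition (6.01 to 7.27), fell 2.86-fold at the next (2.68 to 3.05) and fell 8.77-fold at the last (7.33 to 10.5). In APLNR+ it lay above 98.0% of the tested genes, and in CD43+ above 59.2%. ANXA6 (ENSG00000197043.13) lies on chromosome 5 at 151100712 to 151157882, minus strand. The mesoderm markers peaked in the same library, and their part in the level of ANXA6 was not tested.

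The members together held 544 FPKM in BC1 and 904 in APLNR+, then 1455 in CD31+CD34+ and 1068 in CD43+. As a share of the total FPKM this was 0.0865%, 0.146%, 0.240% and 0.162%. The S100 members summed to 338, 376, 1076 and 1018 FPKM in the same order, and the annexin members to 206, 528, 379.8 and 50.3. The S100 sum was therefore 1.64 times the annexin sum in BC1, 0.711 times in APLNR+, 2.83 times in CD31+CD34+ and 20.3 times in CD43+. The make-up changed as well: S100A11 was the most abundant member in BC1 and APLNR+, and S100A4 in CD31+CD34+ and CD43+. S100A4 made up 9.87% of the members' FPKM in BC1 and 0.812% in APLNR+, then 23.4% in CD31+CD34+ and 72.0% in CD43+. With S100A6 it made up 88.1% in CD43+.

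The other S100 genes were mostly low or not detected. Of the 21 family genes listed, all in the table, 15 were not members, and none of the 15 reached 10 FPKM. The filter was passed by 4 of them, S100A1, S100A2, S100A3 and S100A14, and 11 stayed below 1 FPKM in every library, 3 of which were listed at 0 throughout. S100A8, S100A9 and S100A12, the calgranulins of neutrophils and monocytes, had at most 0.429 FPKM. Among the 4 that passed, S100A3 was at 8.39 FPKM in CD31+CD34+ and at most 0.454 elsewhere. Its locus lies within that of S100A4 on the same strand, with 0 shared exon bases. S100A14 was at 5.50 FPKM in BC1 and at most 0.306 in the other populations.

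On chromosome 1 the table holds 17 S100 genes, 6 of them members. With the 5′ end of each annotated locus as its start, which can differ from the RefSeq start, S100A10 and S100A11 start 53.5 kb apart. The next S100 gene along the chromosome starts 1310 kb further on. The starts of S100A6, S100A4, S100A16 and S100A13 lie within 95.1 kb, a stretch in which 9 S100 genes start. All 4 rose into CD31+CD34+ cells, where 13% of all genes did. Of the other S100 genes in this stretch only S100A3 rose, by 2.69 on the log2 scale. S100A1, S100A2, S100A5 and S100A14 changed by -0.23, 0.37, 0.80 and -0.03, and S100A5 did not pass the filter. At the last transition S100A16 and S100A13 fell, as did 13.5% of all genes, while S100A4 rose, as did 7.63%. Between S100A11 and S100A6 lie S100A9, S100A12, S100A8, S100A7A, S100A7L2 and S100A7, all below 1 FPKM.

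**Figure D5:**
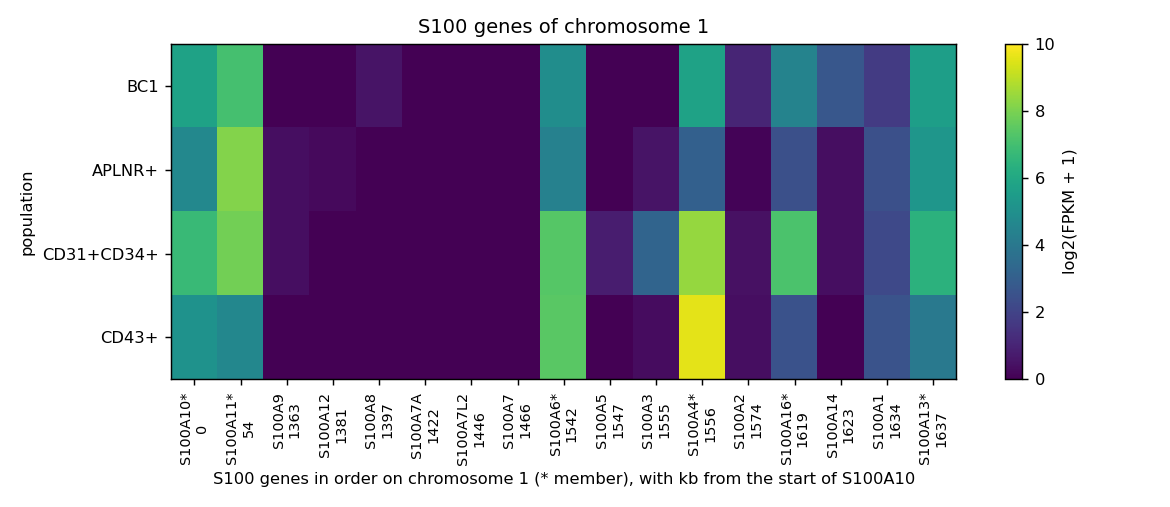
Colour shows log2(FPKM + 1) of the 17 S100 genes of chromosome 1 in their order along the chromosome (members marked with an asterisk) in the 4 populations, with the distance in kb from the start of S100A10 under each name. S100A4 in CD43+, at 769 FPKM, is the brightest cell.

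Of the 13 annexins listed, 9 were not members, and 4 of these, ANXA3, ANXA4, ANXA7 and ANXA11, reached 10 FPKM. ANXA3, an annexin of neutrophil granules and endothelium, was at 8.57 FPKM in BC1 and 1.04 in APLNR+, then 2.41 in CD31+CD34+ and 21.5 in CD43+. It rose 8.92-fold at the last transition (6.27 to 13.2), at which all 4 annexin members fell. ANXA11 ranged from 29.3 FPKM in BC1 to 39.8 in CD43+, ANXA7 from 15.0 in APLNR+ to 26.9 in CD43+, and ANXA4 from 8.71 in BC1 to 11.6 in CD31+CD34+. None of these 3 rose or fell at any of the 3 transitions. The family as a whole, with 9 genes past the filter, had a median change of 0.15, 0.27 and -0.02 at the 3 transitions in order. The S100 family, with 10, had -0.73, 1.64 and -1.02. Both medians include the members, which are 6 of the 10 S100 genes and 4 of the 9 annexins. Without them the 4 remaining S100 genes had -0.21, 0.17 and -0.21, and the 5 remaining annexins -0.24, 0.36 and 0.35.

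A list of 27 binding partners and receptors of the members was followed as well, of which 21 passed the filter. Of these, 5 rose and 3 fell from BC1 to APLNR+, 7 rose and 2 fell into CD31+CD34+, and 0 rose and 10 fell into CD43+. Of all genes, 9.15% rose and 9.32% fell at the first of these transitions, 13% and 11.4% at the next, and 7.63% and 13.5% at the last. The median changes of the partners were 0.06, 0.44 and -0.59. AHNAK, the scaffold bound by the S100A10 and ANXA2 complex, was at 1.07 FPKM in BC1 and 10.4 in APLNR+, then 37.2 in CD31+CD34+ and 2.84 in CD43+. DYSF, the membrane repair protein dysferlin, was at 3.82, 1.05, 68.6 and 3.15 FPKM. DYSF rose 65.6-fold into CD31+CD34+ (55.5 to 77.7) and fell 21.8-fold into CD43+ (19.8 to 24.1).

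Calpain 2, the calcium-dependent protease encoded by CAPN2, was at 7.26, 24.6, 113 and 25.05 FPKM in order of differentiation. PLAU, the urokinase that activates plasminogen, was at 8.68, 16.4, 20.9 and 1.14 FPKM, an 18.4-fold fall at the last transition (13.8 to 24.9). The partners that follow were chosen after their values were seen. MYH9, the myosin chain bound by S100A4, was at 99.4, 107, 178 and 318 FPKM. CACYBP, the partner of S100A6, was at 145, 173, 102 and 140.3 FPKM, without the rise of S100A6. FPR1, FPR2 and FPR3, the receptors of ANXA1, had at most 0.0593 FPKM. AGER, the receptor of several extracellular S100 proteins, was at 2.67, 6.35, 20.2 and 8.77 FPKM.

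Calcium-binding proteins of other kinds were set beside the members. All 20 listed EF-hand proteins outside the S100 family passed the filter. Of these 4 rose and 2 fell from BC1 to APLNR+, 1 rose and 4 fell into CD31+CD34+, and 1 rose and 5 fell into CD43+, with medians of 0.17, -0.02 and -0.74. The shares of all genes that rose were 9.15%, 13% and 7.63%, and those that fell 9.32%, 11.4% and 13.5%. CALM3, 1 of the calmodulin genes, rose 3.12-fold from 241 to 749 FPKM at the first transition (2.97 to 3.27), and EFHD1 rose from 3.06 to 14.5 FPKM. GCA, encoding grancalcin, was at 13.6, 2.83, 24.7 and 14.2 FPKM. CALB1 went from 10.3 FPKM in APLNR+ to 0.0349 in CD31+CD34+, and NCS1 from 45.4 to 13.6. The CALB1 level in CD31+CD34+ rested on about 0.29 estimated fragments, under the floor of 3. In CD43+ RCN1 fell 3.95-fold (3.58 to 4.36), EFHD1 fell 8.29-fold (4.79 to 15.7) and PPP3R1, the regulatory subunit of calcineurin, rose 3.12-fold (2.66 to 3.67).

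The 18 listed proteins that bind phospholipid through C2 domains, as annexins do by another fold, all passed the filter. Of these 1 rose and 3 fell at the first transition, 6 rose and 2 fell into CD31+CD34+, and 4 rose and 2 fell into CD43+, where 0 of the 4 annexin members rose. The shares over all genes were 9.15% and 9.32% at the first transition, then 13% and 11.4%, and 7.63% and 13.5%. The medians of the C2 list were -0.42, 0.51 and 0.03. CPNE2, a copine, was at 12.1 FPKM in BC1, 6.59 in APLNR+ and 50.5 in CD31+CD34+, and fell 4.21-fold into CD43+ (3.71 to 4.77). PRKCB, a protein kinase C, was at 3.88, 0.556, 8.30 and 17.8 FPKM, and SYTL4, a granule-docking protein, went from 5.13 in CD31+CD34+ to 45.8 in CD43+. CPNE1 stayed between 99.3 and 135 FPKM.

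Genes with a course like that of a member were sought among 8931 protein-coding genes that reached 10 FPKM in some library, by the root mean squared difference of centred log2(FPKM + 1) over the 4 libraries. For S100A4 the nearest were GJA4 at 0.39, ATP2A3 at 0.51 and CD82 at 0.55. GJA4 was at 6.66 FPKM in BC1 and 1.30 in APLNR+, then 49.4 in CD31+CD34+ and 151 in CD43+. For ANXA1 they were MYZAP at 0.18, CALCRL at 0.23 and S1PR1 at 0.25, and CALCRL was at 0.503, 0.0535, 24.0 and 5.63 FPKM. For ANXA2 they were FN1 at 0.13, SOCS3 at 0.14 and CGNL1 at 0.14. FN1, encoding fibronectin, was at 23.6, 68.4, 90.6 and 5.73 FPKM. For S100A10 they were MYO6 at 0.06, ZNF670 at 0.10 and SLC43A2 at 0.15.

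Near-identical copies took little of the signal that the table gives to the members. ANXA2P2, a processed copy of ANXA2, was at 0.377 to 2.97 FPKM, which was 1.35% to 2.42% of ANXA2, and ANXA2P1 had at most 0.211 FPKM. ANXA2P3, S100A11P1 and S100A11P2 were listed at 0 in every library. Reads that fit a member and its copy could have been assigned to either, so the levels of ANXA2 carry this uncertainty. Several S100 transcripts are short, and FPKM of short transcripts depends on the fragment length taken off them, 256 to 280 bases here, so levels of S100 genes relative to longer genes are less certain than the same gene's folds between libraries.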

How the data were processed

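The values deposited by the study's authors were FPKM per gene, 1 column per population. The submitters' processing notes name BWA, Bowtie, RSEM and hg19 without roles, and their versions and the use of strand are not given in the sources used here. Without regard to version, 58011 of 58274 gene identifiers (99.5%) were in GENCODE release 29 on GRCh38. The version was the same for 55647, and loci were compared for these only. Of them 55646 had the same start and 55630 the same end, so positions are on that build, counted from 1. The 58365 rows were summed by gene identifier. Every column of expression values was used.

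Values were compared as log2(FPKM + 1) for the 17137 genes that reached 1 FPKM in any library, and a gene was called at a change of at least 1. This scale understates changes of low values. With 1 library per population no test was run. Mapped fragments were fitted to the steps of low FPKM values of genes with 1 transcript of at least 1000 bases: 19600000 for BC1, 21500000 for both APLNR+ and CD43+, and 23600000 for CD31+CD34+, at which 83.8% to 86.0% of the low values lay within 0.1 of a whole number. Fragments of a gene were estimated with the median length over its coding transcripts, and exact Clopper-Pearson 95% intervals of folds from these estimates, with 3 fragments as the floor. Scripts were tested on simulated data. Python 3.11.15, numpy 2.4.6, pandas 2.3.3, scipy 1.17.1 and matplotlib 3.10.9 were used.

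The members, the marker lists and the family, partner, EF-hand and C2 lists were chosen with earlier results of these data known. The genes named were the 10 members, family genes with at least 10 FPKM, the 3 genes of each other list with the largest change at each transition among those with at least 10 FPKM, the 3 nearest genes of S100A4, S100A10, ANXA1 and ANXA2, and copies or overlapping genes of members. S100A2, S100A5, S100A7, S100A7A, S100A7L2, S100A14, the calgranulins, MYH9, CACYBP, AGER and the FPR genes fall outside this rule, as do SOX2, ELANE and PTPRC. They were chosen after their values were seen. The same holds for APLNR, PECAM1, SPN, HBE1 and PF4. Promoter sequences were taken from RefSeq (GRCh38.p14). Protein sequences were not used here. Alternatives were another threshold, pseudocount, filter or scaling, added pseudogenes, the highest row of an identifier, and the longest transcript for the intervals.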

Additional observations from a re-analysis of the deposited data

How the results depend on the processing

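Of the 30 changes of a member at a transition, each recomputed under 8 settings, 235 of 240 values moved by less than the counting error. No change past the threshold changed sign. Many of the 240 could not move, because the filters leave a member's own change as it is. The choice of row altered no member's values, and the added pseudogenes altered those of ANXA2 only. The other values that could differ were those with the other pseudocount or scaling. The change of S100A6 into CD43+, 0.08 and below the threshold, was -0.0021 without mitochondrial genes and -0.038 when each library was scaled to the same total. No count of members that rose or fell changed with the pseudocount, the scaling or, through ANXA2, the added pseudogenes. The filters and the choice of row could not change these counts, since every member exceeded 5 FPKM in some library and kept its values. With a threshold of 2 in place of 1, 1 member rose and 2 fell into APLNR+. Into CD31+CD34+ 5 rose and 0 fell, and into CD43+ 0 rose and 5 fell. Of all genes, 2.68% rose and 2.29% fell into APLNR+, 4.08% and 3.15% into CD31+CD34+, and 2.28% and 4.32% into CD43+. With a threshold of 0.5, 3 members rose and 4 fell into APLNR+. Into CD31+CD34+ 6 rose and 2 fell, and into CD43+ 1 rose and 8 fell. Over all genes the shares were 21.05% and 21.1% into APLNR+, 26.97% and 24.29% into CD31+CD34+, and 17.44% and 27.32% into CD43+. The median change of the S100 family was 0, 0.099 and -0.073 at the 3 transitions with no filter, 2.39 and -2.04 at the last 2 with a filter of 5 FPKM, 1.18 into CD31+CD34+ when each library was scaled to a total of 1000000, and -1.81 into CD43+ with a pseudocount of 0.1. The filters change which of the low genes are counted. The annexin family had -0.87 into CD43+ with the filter of 5 FPKM. The partners had -0.87 with the pseudocount of 0.1, -0.21 with no filter, -0.84 with the filter of 5 FPKM and -0.76 when scaled, all into CD43+. Counts in the wider lists moved in some settings too. In the C2 list 8 genes in place of 3 fell into APLNR+ with the pseudocount of 0.1, where 15.0% of all genes fell. With the threshold of 0.5 it was also 8, where 21.1% of all genes fell. Without mitochondrial genes the members' share of the total was 0.0937% in BC1 and 0.155% in APLNR+, then 0.254% in CD31+CD34+ and 0.176% in CD43+, since the total is then smaller. The cause of the other shifts was not tested. With the longest transcript in place of the median length, 0 of 50 intervals changed their side of 1. No paired analysis was possible because each population had 1 library, and for the same reason no library could be left out. Depth limits ANXA1 in BC1 and APLNR+ and the S100 genes below 1 FPKM.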
